A study of Mus musculus with 9 samples.

Results

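The early growth response (Egr) transcription factors Egr1, Egr2, Egr3 and Egr4 and their corepressors Nab1 and Nab2 were followed in bEnd.3 tumors of mice given R-propranolol or vehicle. The members were the rows of the count table with these gene symbols, 6 of the 24421 genes listed. The family was picked around Egr1, which had the smallest p of all genes in an earlier analysis of the same tumors, so every difference between the groups given here for a member is a description without a test.
bEnd.3, mouse endothelial cells immortalized with polyoma virus middle T antigen, was grown as allografts in the flank of male athymic Nu/Nu nude mice, which lack a thymus and most T cells. R-propranolol, the isomer of propranolol without relevant beta blockade, was injected intraperitoneally at 6 mg/kg per day on 5 days a week from the second day after the cells, and control mice received ethanol in buffered saline. All tumors derived from 1 cell line, and the sources used here do not give the age of the mice. RNA of 4 tumors under vehicle and 5 under R-propranolol was sequenced, with 1 library per tumor and 20599904 to 27852630 counts over genes. The titles of vehicle replicates 1 and 2 share their first number, and what it marks is not stated. If it marks an animal, the vehicle group of 4 tumors holds 3 animals, and each spread over n = 4 below would cover fewer mice than tumors.
Egr factors are zinc finger proteins of the immediate-early class, whose genes are switched on within minutes by growth factors, shear or stress, mainly through Ras, ERK and the factors Srf and Elk at their promoters. They bind GC-rich sites. Egr1 acts in endothelium on genes of growth factors, tissue factor and matrix proteases, Egr2 is best known for myelination by Schwann cells, Egr3 for lymphocytes and muscle spindles and Egr4 for neurons and the testis. Nab1 and Nab2 bind to a repression domain of Egr1, Egr2 and Egr3 and recruit the NuRD complex. Nab2 is itself induced by Egr factors in many cells, which closes a negative feedback loop.

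Promoter sequences were searched for letter matches to the sites of some of these inputs. RefSeq windows of 300 bases (250 before and 50 from the start) were at hand for 4 of the 6 members, Egr2 with 5 windows and Egr4, Nab1 and Nab2 with 1 each, and not for Egr1 and Egr3. The windows of Egr2 at its starts at chr10:67537316-67537615 and chr10:67537619-67537918 (+ strand), of Egr4 at chr6:85513540-85513839 (- strand) and of Nab1 at chr1:52500399-52500698 (- strand) on GRCm38.p6 are shown 5′ to 3′ since they hold the matches. Capitals mark the CArG box (the site of Srf), the Egr site GCGNGGGCG, the ETS core CCGGAA and the short form TGACG of the cAMP response element, on either strand.
Egr2, window 2: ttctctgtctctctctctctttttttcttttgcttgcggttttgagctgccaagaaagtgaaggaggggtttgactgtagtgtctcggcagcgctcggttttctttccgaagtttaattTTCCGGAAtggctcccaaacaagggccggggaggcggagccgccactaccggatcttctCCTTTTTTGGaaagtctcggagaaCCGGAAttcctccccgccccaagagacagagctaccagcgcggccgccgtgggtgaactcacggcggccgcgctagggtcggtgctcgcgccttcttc
Egr2, window 3: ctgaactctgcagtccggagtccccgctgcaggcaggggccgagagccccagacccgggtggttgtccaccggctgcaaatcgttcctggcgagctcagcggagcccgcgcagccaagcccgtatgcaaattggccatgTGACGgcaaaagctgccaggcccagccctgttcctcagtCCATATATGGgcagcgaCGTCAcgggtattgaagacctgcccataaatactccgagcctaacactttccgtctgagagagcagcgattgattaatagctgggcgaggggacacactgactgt
Egr4: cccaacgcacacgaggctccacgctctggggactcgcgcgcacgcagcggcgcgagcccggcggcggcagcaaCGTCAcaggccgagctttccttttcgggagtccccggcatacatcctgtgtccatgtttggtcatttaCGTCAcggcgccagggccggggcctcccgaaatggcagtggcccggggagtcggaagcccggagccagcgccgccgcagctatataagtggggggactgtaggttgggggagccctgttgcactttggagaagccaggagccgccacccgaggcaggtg
Nab1: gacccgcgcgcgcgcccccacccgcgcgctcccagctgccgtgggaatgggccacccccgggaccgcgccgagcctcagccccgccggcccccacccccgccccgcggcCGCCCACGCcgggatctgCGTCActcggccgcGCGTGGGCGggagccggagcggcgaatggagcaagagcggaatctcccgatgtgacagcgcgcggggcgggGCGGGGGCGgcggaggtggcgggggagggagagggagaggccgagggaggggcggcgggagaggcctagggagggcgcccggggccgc
A CArG box was present in 4 of the 5 Egr2 windows, of which 3 overlap and share 1 box, and in 1.81% of the 26994 genes with a window. In window 2 the box began at position -72 relative to the start, with ETS cores at -131, -129 and -48, where the first pair overlap. In window 3 a CArG box also began at -72, between 2 TGACG elements on opposite strands. Egr4 had 2 TGACG elements and no CArG box, and TGACG was found in 23% of genes. Nab1 had 1 TGACG element and 3 Egr sites, at -141, -109 and -38, and 6.28% of genes had at least 1 such site. Its Egr sites overlap 4 of its 7 GC boxes (GGGCGG, found in 38.2% of genes). The Nab1 window is 81.7% G or C, and the shares of genes given here are not matched for this. The Nab2 window, at chr10:127666654-127666953 (- strand), held 1 GC box and none of the other motifs. This window lies inside the annotated gene, which runs to 127668568, so the sequence before its outermost start was not searched. These are matches of letters and were not measured as bound.

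Egr1 was the most abundant Egr gene in every tumor. The gene spans bases 34859823 to 34864984 of chromosome 18 (GRCm38), and its exons overlap no other annotated gene. Vehicle-treated tumors had 41.4, 49.3, 48.9 and 58.6 CPM (read counts relative to the TMM-scaled library size) in replicates 1 to 4. R-propranolol-treated tumors had 101, 135, 126, 61.6 and 110 CPM in replicates 1 to 5. The groups did not overlap, but R-propranolol replicate 4 lay only just above vehicle replicate 4. The means were 49.6 ± 7.05 CPM under vehicle (SD, n = 4) and 107 ± 28.5 CPM under R-propranolol (SD, n = 5). On the log2 scale the fitted fold change was 1.11 (standard error 0.22). The counts behind these values were 962 to 1280 and 1504 to 3518, so counting error was 2.93% of the level in vehicle-treated and 2.10% in R-propranolol-treated tumors, against a spread between tumors of 14.2% and 26.7%. In such bulk RNA, a change in the number of cells that express a gene and a change in RNA per cell cannot be told apart.
In edgeR's quasi-likelihood test with Benjamini-Hochberg adjustment over 13901 genes, 0 genes (0%) were called at an adjusted p under 0.05, and hence 0 of the 5 tested members. At an unadjusted p under 0.05 there were 320 genes (2.3%), 280 of them higher (2.01%) and 40 lower (0.288%) under R-propranolol. DESeq2 called 2 genes, which were Egr1 and the phosphatase gene Dusp1, and limma-voom called 0. At an unadjusted p under 0.05 these tests had 656 and 139 genes. Of the 5 tested members, Egr1 alone had groups that did not overlap, as had 0.633% of all genes in this direction and 0.626% in the other. Since Egr1 was chosen on this contrast, neither its place among the genes nor its separation supports anything further.

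**Figure D1:**
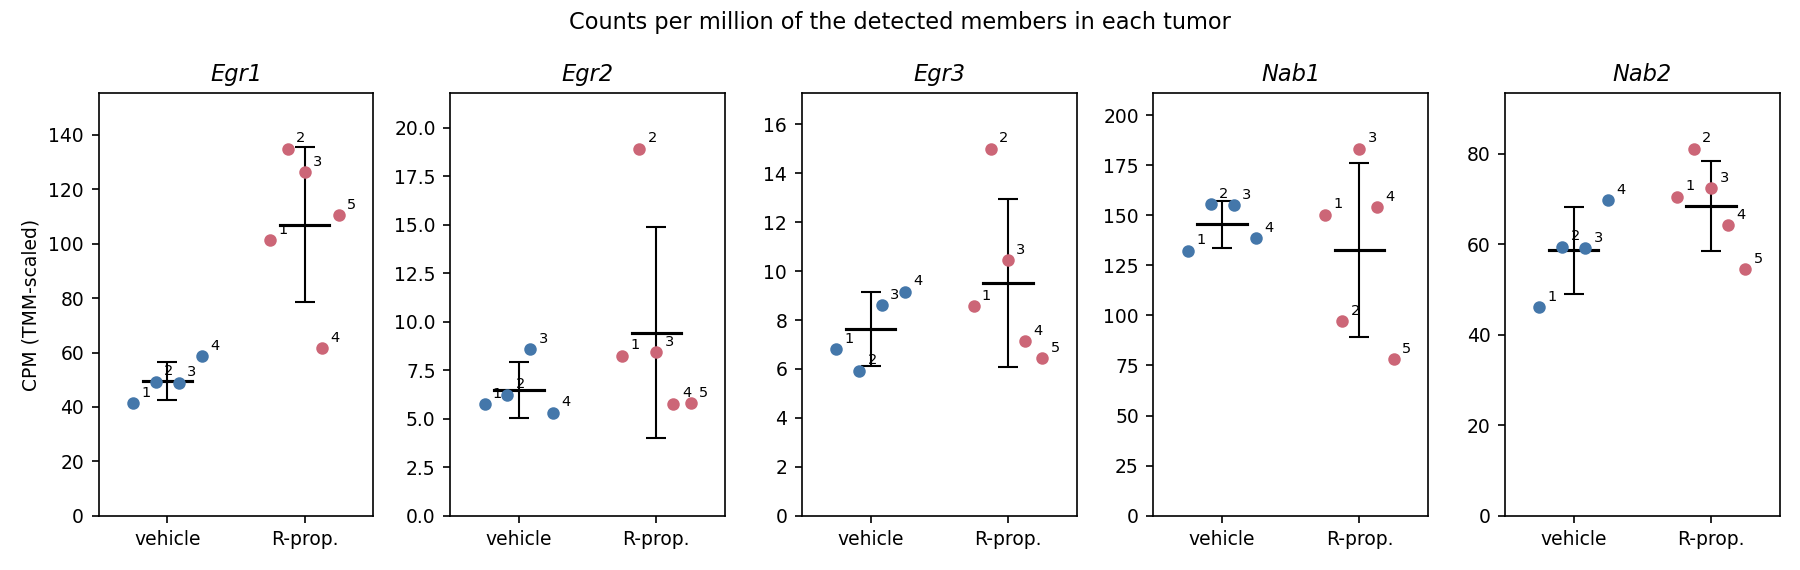
CPM after TMM scaling (vertical axes, each from 0) of the 5 detected members in each tumor, with points numbered by replicate, a line for the mean and an error bar for the SD (n = 4 vehicle-treated, n = 5 R-propranolol-treated). The groups are apart for Egr1 and overlap for Egr2, Egr3, Nab1 and Nab2, and R-propranolol replicate 2 lies highest for Egr1, Egr2, Egr3 and Nab2.

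Egr2 and Egr3 were present at low levels, and 1 tumor set their means. Egr2 lies on chromosome 10 from 67535475 to 67542188 and Egr3 on chromosome 14 from 70077203 to 70082614. Egr2 had 5.77, 6.24, 8.57 and 5.32 CPM in vehicle-treated tumors and 8.26, 18.9, 8.44, 5.78 and 5.79 CPM in R-propranolol-treated tumors. Only R-propranolol replicate 2 lay above the vehicle range, and the other 4 lay within it. The means were 6.47 ± 1.45 CPM under vehicle (SD, n = 4) and 9.44 ± 5.46 CPM under R-propranolol (SD, n = 5). On the log2 scale the fitted fold change was 0.54 (standard error 0.38), and 0.13 without R-propranolol replicate 2. With 87 to 473 counts per tumor, counting error was 8.25% of the level in vehicle-treated tumors, a larger share of the spread between tumors (22.4%) than for Egr1.
Egr3 had 6.80, 5.93, 8.61 and 9.16 CPM in vehicle-treated tumors and 8.57, 15.0, 10.4, 7.13 and 6.45 CPM in R-propranolol-treated tumors. Replicates 2 and 3 of the R-propranolol group exceeded the highest vehicle-treated tumor, and 3 fell inside its range. The means were 7.63 ± 1.51 CPM under vehicle (SD, n = 4) and 9.52 ± 3.43 CPM under R-propranolol (SD, n = 5). The fitted log2 fold change was 0.32 (standard error 0.28), and 0.10 without R-propranolol replicate 2.
R-propranolol replicate 2 was also high in some measures of cell type markers. The summed level of 9 fibroblast markers took 3.02% of its counts, against 0.547% to 1.18% in the other 8 tumors. Their median log2 CPM did not set this tumor apart, at 8.16, with 8.14 in vehicle replicate 2 and 9.15 in R-propranolol replicate 5. The median log2 CPM of 12 endothelial markers was 5.89 in this tumor, 5.59 in R-propranolol replicate 5 and 3.59 to 4.30 in the other 7. The median of 9 Schwann cell markers was 1.38 in R-propranolol replicate 2, 2.28 in replicate 5 and -1.93 to 1.30 elsewhere. The part of these cells in the level of Egr2 and Egr3 was not tested.
Egr4 was not detected. It lies on chromosome 6 from 85511121 to 85513589, and it had 0 counts in all 9 tumors. A count of 0 allows up to 3 counts, which is 0.106 to 0.200 CPM depending on the tumor, for counting error only. No fold change is given for it.

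Nab1, the more abundant corepressor, lies on chromosome 1 from 52457294 to 52500679. Vehicle-treated tumors had 132, 156, 155 and 139 CPM. R-propranolol-treated tumors had 150, 97.1, 183, 154 and 78.3 CPM. Replicates 2 and 5 of the R-propranolol group lay below every vehicle-treated tumor, replicate 3 lay above them, and the other 2 lay among them. The mean was 145 ± 11.7 CPM under vehicle (SD, n = 4) and 133 ± 43.4 CPM under R-propranolol (SD, n = 5), so the spread was 8.07% of the level in vehicle-treated and 32.8% in R-propranolol-treated tumors. Its fitted log2 fold change of -0.13 (standard error 0.24) was smaller than its error and was 0.01 without R-propranolol replicate 5.
Nab2 lies on chromosome 10 from 127660918 to 127668568. Its level was 46.1, 59.5, 59.1 and 69.7 CPM in vehicle-treated tumors. In R-propranolol-treated tumors it was 70.5, 81.1, 72.3, 64.2 and 54.5 CPM. Replicates 1, 2 and 3 of the R-propranolol group lay above the vehicle range, the first by little, and replicates 4 and 5 within it. The means were 58.6 ± 9.67 CPM under vehicle (SD, n = 4) and 68.5 ± 9.93 CPM under R-propranolol (SD, n = 5). On the log2 scale the fitted fold change was 0.23 (standard error 0.15). Of its exon bases, Nab2 shares 40 with the transcription factor gene Stat6, 151 with Nemp1 (listed as Tmem194) and 1050 with the antisense RNA Gm16229, all on the other strand. Stat6 had 1727 to 4688 counts and Tmem194 191 to 601, and Gm16229 is not listed in the counts. Whether reads there went to Nab2 is not known, because the sources used here do not give the strand setting of the counting. The exons of Egr2, Egr3, Egr4 and Nab1 overlap no other gene in the annotation.

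R-propranolol replicate 5 stood apart as a library. Its log2 CPM had a correlation across genes of 0.678 to 0.790 with the other tumors, which among themselves had 0.897 to 0.988, and 14 skeletal muscle markers took 13.2% of its counts. All 12 endothelial markers were detected, Pecam1 and Cdh5 among them. Between the groups, the summed endothelial markers ranged from 480 to 612 CPM in vehicle-treated and from 503 to 1052 CPM in R-propranolol-treated tumors, and the 11 macrophage markers from 862 to 2311 and from 795 to 4369 CPM. The hepatocyte list (12 genes) ran from 1.71 to 38.1 and from 22.2 to 100 CPM, while 7 neutrophil genes had 107 to 207 and 42.6 to 352 CPM. Adipocyte markers (10 genes) reached 6040 CPM and mural cell markers (9 genes) 9203 CPM in R-propranolol replicate 5, and at most 478 and 462 CPM in the other 8 tumors. Lymphocyte markers (13 genes) stayed at or below 15.2 CPM, keratinocyte markers (8 genes) at or below 19.9 CPM and erythroid markers (7 genes) at or below 27.1 CPM, with the 4 globin genes at 0. Without this tumor the log2 fold changes of Egr1, Egr2, Egr3 and Nab2 were 1.09, 0.67, 0.43 and 0.30. The part of other cell types in the levels of the members was not tested.
Taken relative to the median of the endothelial markers in the same tumor, an alternative chosen after seeing the data, Egr1 was 1.75 ± 0.34 (SD, n = 4) above it on the log2 scale in vehicle-treated tumors and 2.06 ± 0.81 (SD, n = 5) in R-propranolol-treated tumors. This difference of 0.30 was within that spread, but 3 of 5 R-propranolol-treated tumors still lay above every vehicle-treated tumor. For Egr2, Egr3, Nab1 and Nab2 the difference on this scale was -0.35, -0.49, -0.96 and -0.54, and these signs are opposite to those of the CPM for all but Nab1. For these 4 members, 1, 0, 1 and 1 of 5 treated tumors lay above the vehicle range. The endothelial median itself was 5.89 and 5.59 log2 CPM in R-propranolol replicates 2 and 5, and 3.59 to 4.30 in the other tumors. These means therefore include 2 tumors in which the reference was much higher.

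Levels can be compared between genes only per length, so CPM were divided by the kilobases of annotated exon. On this scale Nab1 was the highest at 33.7 ± 7.87 CPM per kilobase (SD, n = 9), followed by Nab2 at 21.8 ± 3.59, Egr1 at 18.2 ± 8.16, Egr2 at 2.39 ± 1.25 and Egr3 at 1.97 ± 0.631. The order of member levels was not used to choose the genes, and neighbors were compared by an exact sign-flip permutation test (two-sided, 4 pairs, Benjamini-Hochberg adjusted). Which genes were neighbors was read from the mean levels in these same tumors, and the p-values do not account for that. The step from Egr1 down to Egr2 was large, with a mean log2 difference of 2.91 ± 0.57 (SD, n = 9) and the same direction in 9 of 9 tumors (exact p = 0.00391, the smallest that 9 tumors allow, adjusted p = 0.0156). Nab1 exceeded Nab2 in 8 of 9 tumors, with a log2 difference of 0.61 ± 0.43 (SD, n = 9, exact p = 0.0117, adjusted p = 0.0234). The length of Nab2 includes the exon bases shared with other genes, where it is not known whether reads were counted for it. If they were not, its level per kilobase is too low here, and its steps to Nab1 and Egr1 carry this limit. Over all 9 tumors, Nab2 against Egr1 (0.38 ± 0.53, higher in 6 of 9, exact test, adjusted p = 0.0703) and Egr2 against Egr3 (0.21 ± 0.31, higher in 8 of 9, exact test, adjusted p = 0.0703) did not pass the test. The first of these, like the step from Egr1 to Egr2, pools groups that differ in Egr1, the gene chosen for that difference. Egr1 lay above Egr2 by 2.55 ± 0.39 on the log2 scale in 4 of 4 tumors under vehicle (SD, n = 4). Under R-propranolol this step was 3.20 ± 0.53 in 5 of 5 tumors (SD, n = 5). Nab2 lay above Egr1 by 0.85 ± 0.055 on the log2 scale in 4 of 4 tumors under vehicle (SD, n = 4). Under R-propranolol the log2 difference was 0.00 ± 0.41 (SD, n = 5), with Nab2 higher in 2 of 5 tumors and mean levels of 23.3 (Nab2) and 23.9 CPM per kilobase (Egr1). The place of Egr1 next to Nab2 in the order is therefore not the same in both groups. With the longest transcript in place of all exons, Nab2 over Egr1 and Egr2 over Egr3 passed. Their adjusted p values in the exact test were 0.0312 and 0.0469. Both had the same direction as with all exons, so only whether they passed depended on the length used.

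**Figure D2:**
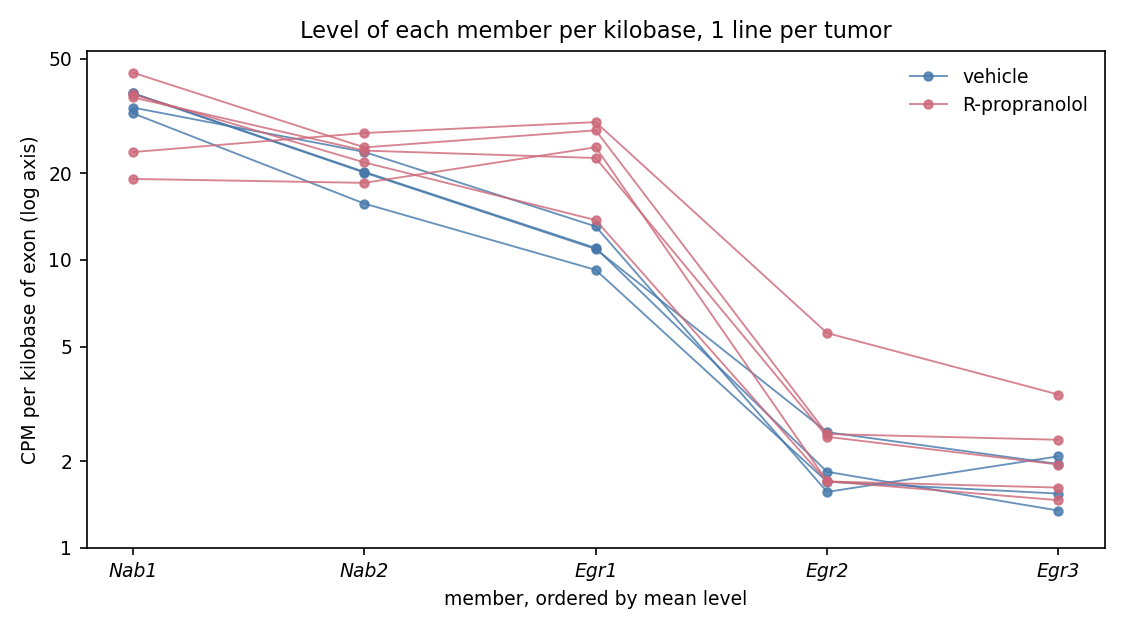
CPM per kilobase of exon (vertical axis, logarithmic) of Nab1, Nab2, Egr1, Egr2 and Egr3, with 1 line per tumor (4 under vehicle, 5 under R-propranolol). Egr2 and Egr3 lie far below the other members in all 9 tumors, and the lines of vehicle-treated tumors fall from Nab2 to Egr1 while those of some R-propranolol-treated tumors rise.

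The ratio of corepressor to activator varied little among the 4 vehicle-treated tumors, of which replicates 1 and 2 share a title number. The ratio of Nab2 to Egr1, both per kilobase, was 1.70, 1.84, 1.84 and 1.81 in them, a mean of 1.80 ± 0.0674 (SD, n = 4), although Egr1 and Nab2 themselves differed between these tumors. In R-propranolol-treated tumors the ratio was 1.06, 0.917, 0.872, 1.59 and 0.752, a mean of 1.04 ± 0.326 (SD, n = 5). All 5 lay below the lowest vehicle-treated tumor, and R-propranolol replicate 4 came nearest. Since Egr1, chosen for its difference, already had groups that did not overlap, this separation is not a further result. Neither it nor the small spread under vehicle was compared with ratios of other gene pairs. Both Nab genes together were 3.79 ± 0.272 (SD, n = 4) times the summed Egr genes in vehicle-treated and 2.10 ± 0.881 (SD, n = 5) times in R-propranolol-treated tumors. Here the groups overlap, with 3.48 in R-propranolol replicate 4 and 3.44 in vehicle replicate 4. Egr1 made up 75.2% ± 3.38 (SD, n = 4) and 83.1% ± 4.44 (SD, n = 5) of the summed Egr level. These shares overlap too, with 77.0% in R-propranolol replicate 2 and 78.2% in vehicle replicate 4. These ratios contain Egr1 and were therefore not tested between the groups. Every ratio with Nab2 also rests on its whole exon length, including the bases shared with other genes. The ratio of Nab1 to Nab2 was 2.06, 1.88, 1.88 and 1.43 in vehicle-treated and 1.53, 0.859, 1.82, 1.72 and 1.03 in R-propranolol-treated tumors, with overlapping groups.

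**Figure D3:**
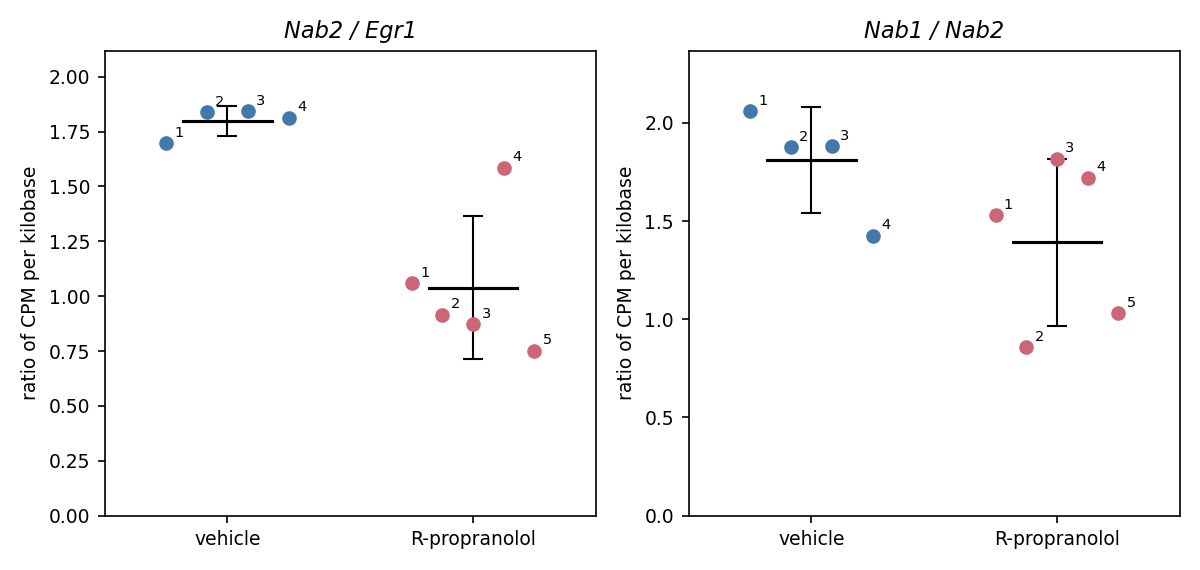
Ratios of CPM per kilobase (vertical axes, from 0) of Nab2 to Egr1 and of Nab1 to Nab2 in each tumor, numbered by replicate, with mean and SD (n = 4 vehicle-treated, n = 5 R-propranolol-treated). The ratio of Nab2 to Egr1 lies between 1.70 and 1.84 in vehicle-treated tumors and between 0.752 and 1.59 in R-propranolol-treated tumors. It contains Egr1, the gene chosen for its difference between the groups.

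Across the 9 tumors, the likeness of expression patterns was measured as the Pearson correlation of log2 CPM, as a description of tumors that also share their treatment groups. Egr2 and Egr3 were most alike among the members, with r = 0.85 over 9 tumors, 0.57 without R-propranolol replicate 2. Egr1 had r = 0.65 with Nab2, and 0.51 to 0.85 with 1 tumor left out. Its r was 0.60 with Egr3 and 0.59 with Egr2, which became 0.41 and 0.37 without R-propranolol replicate 2 and 0.80 and 0.72 without R-propranolol replicate 5. Nab1 had r = -0.36 with Egr1, and -0.68 to -0.18 with 1 tumor left out. The r of Nab1 with Nab2 was 0.12, and its sign depended on single tumors, with 0.50 without R-propranolol replicate 2 and -0.21 without R-propranolol replicate 5. With the group means removed, which takes out the difference between treatments, Egr1 still had r = 0.52 with Nab2, 0.63 with Egr3 and 0.54 with Egr2 over 9 tumors.
The genes most like each member were ranked among all tested genes by the lower of r over 9 and over 8 tumors. For Egr1 they were Dusp1 (lower r of 0.98), Usp53 (0.93), Gpr17, Tbc1d2 and Lims1 (0.92 each). With group means removed, r over 9 tumors was 0.94 for Dusp1, 0.72 for Usp53, 0.83 for Gpr17, 0.76 for Tbc1d2 and 0.83 for Lims1. For Egr2 they were Prdm1, which encodes the repressor Blimp1 (0.97), Sh2d3c (0.96), the histone demethylase gene Kdm1a (0.96), the NF-kappaB inhibitor gene Tnfaip3 (0.96) and Sema6b (0.95). These rest partly on R-propranolol replicate 2, without which r was 0.95 for Prdm1 and 0.77 for Sema6b. For Egr3 they were Coq10b (0.95), Cdk14 and Frs3os (0.94 each), the tissue factor pathway inhibitor gene Tfpi (0.93) and Fam114a1 (0.92). For Nab2 they were the G protein subunit gene Gng12, the desaturase family gene Fads3, the signaling adaptor gene Traf6, the adrenomedullin gene Adm and Nipal1 (0.93 to 0.96). For Nab1 they were 2610035D17Rik, Vps11, Cyp39a1, Rtca and Fam21 (0.93 to 0.96). Gpr17, Frs3os and Nipal1 had low mean levels of 0.79, 0.77 and 0.66 CPM. These places are the top of 13900 genes ranked over few tumors and were not tested. No other member was among the 5 nearest genes of any member. The nearest was Egr2, at rank 69 of 13900 for Egr3.

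**Figure D4:**
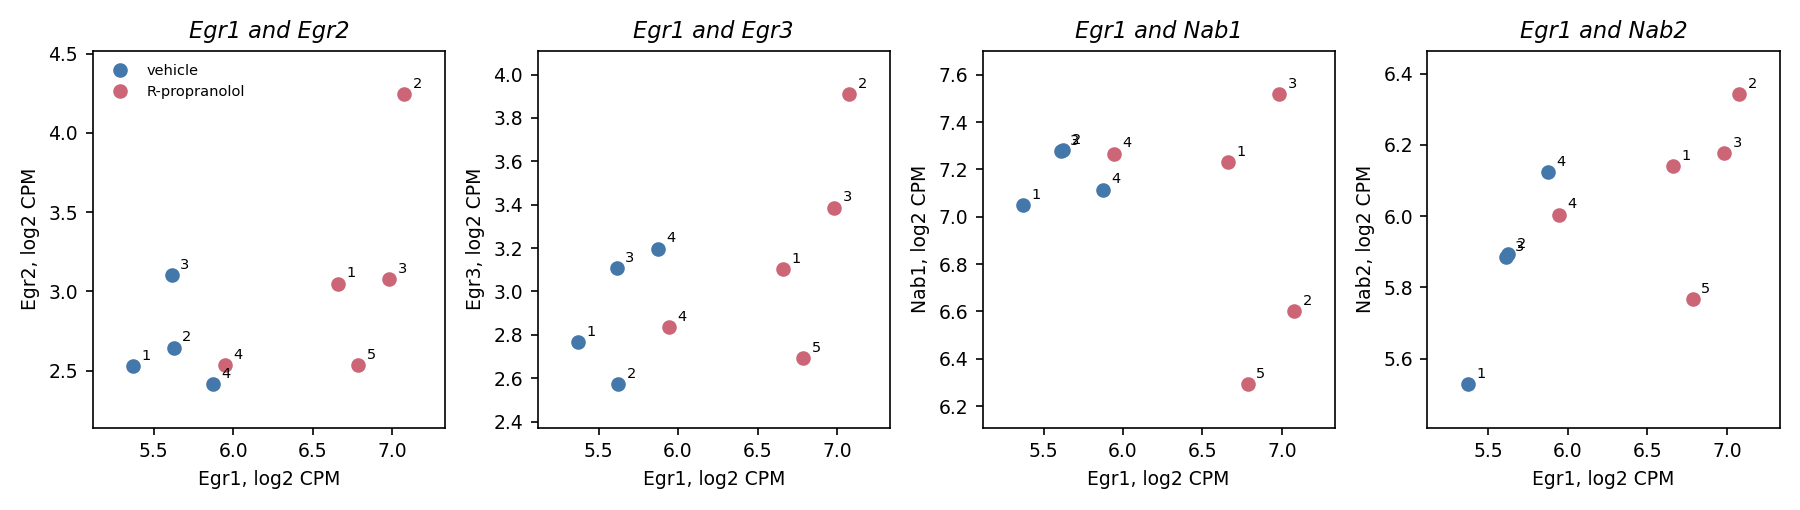
Log2 CPM of Egr1 (horizontal axes) against Egr2, Egr3, Nab1 and Nab2 (vertical axes) in each tumor, numbered by replicate, with a point for each of 9 tumors, colored by treatment. R-propranolol replicate 2 lies at the top right for Egr2, Egr3 and Nab2, and R-propranolol replicate 5 has much Egr1 with little Egr2, Egr3, Nab1 and Nab2.

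The pathway around the family was followed in lists of its known inputs, partners and targets, with the same edgeR test. In none of the 7 lists was a gene called at an adjusted p under 0.05, and DESeq2 called only Dusp1 among them. Over all genes tested, 54.3% lay higher on average under R-propranolol, with a median log2 fold change of 0.03. When library size alone set the scale, 35.8% lay higher and the median was -0.10. Without R-propranolol replicate 5, 53.7% lay higher, the median was 0.01 and 3.78% of genes had an unadjusted p under 0.05, against 2.3% with all tumors. List counts are to be read against the share of all genes at the same setting.
Among the inputs, Srf itself had 82.6 ± 1.76 CPM under vehicle (SD, n = 4) and 109 ± 33.2 CPM under R-propranolol (SD, n = 5). Its log2 fold change was 0.40 (standard error 0.19), and 0.19 without R-propranolol replicate 5, which had 168 CPM. All 5 R-propranolol-treated tumors lay above every vehicle-treated tumor for Srf, as in 0.633% of all genes. The ternary complex factors that join Srf had log2 fold changes of -0.21 (Elk1), -0.18 (Elk3) and -0.09 (Elk4), and the Srf coactivator gene Mkl2, named for its p, had 0.26. Without R-propranolol replicate 5 these 4 were -0.04, -0.01, 0.00 and 0.17. Of 6 tested genes of this list, 3 had a higher mean, 0 had an unadjusted p under 0.05, and the median was -0.03. Without R-propranolol replicate 5, 1 gene had an unadjusted p under 0.05, which is 16.7% of the list against 3.78% of all genes. Of 20 tested genes of the cascade from Ras to ERK, 14 had a higher mean (8 with library size alone), 0 had an unadjusted p under 0.05 and the median was 0.08. For this cascade too the number was 1 without R-propranolol replicate 5 (5% of the list). The kinase genes Map2k1 and Mapk3 had log2 fold changes of 0.08 and -0.21 (0.11 and -0.03 without R-propranolol replicate 5). Braf (0.00, and 0.15 without R-propranolol replicate 5) encodes a kinase above them, and Ksr1 (0.77) and Rps6ka2 (0.62), named for their p, had 0.07 and 0.00 without R-propranolol replicate 5.
Among the partners, 13 genes of the NuRD complex had a median log2 fold change of -0.05, with 4 higher and 0 at an unadjusted p under 0.05. The number higher was 1 with library size alone and 7 without R-propranolol replicate 5, where the median was 0.03, so the side on which this list lay depended on the setting. Chd4, the helicase that Nab2 binds, had 452 ± 12.6 CPM under vehicle (SD, n = 4) and 431 ± 84.8 CPM under R-propranolol (SD, n = 5). Mta1, Hdac1 and Hdac2 had log2 fold changes of 0.04, -0.11 and 0.00, and Mbd2 and Rbbp7 had 0.17 and -0.23. Without R-propranolol replicate 5 these 5 were 0.14, -0.01, -0.04, 0.08 and -0.07. Of 6 tested factors of the same GC-rich sites, 2 had a higher mean and 0 an unadjusted p under 0.05, with a median of -0.05, and 4 were higher with a median of 0.06 without R-propranolol replicate 5. Sp1 and Sp3 had -0.22 and -0.08, Wt1 was at 1.85 ± 0.950 CPM under vehicle (SD, n = 4) and 2.30 ± 1.83 CPM under R-propranolol (SD, n = 5), and Klf4, a factor of vessel wall cells, had 0.75 (standard error 0.33). Without R-propranolol replicate 5 the log2 fold changes of Sp1, Sp3 and Klf4 were -0.09, 0.05 and 0.42.
Among genes reported as Egr targets, 24 of 37 tested had a higher mean (19 with library size alone) and the median log2 fold change was 0.13. Only Id3, an inhibitor of helix-loop-helix factors, and Igf2 had an unadjusted p under 0.05, both higher, which is 5.41% of the list against 2.3% of all genes. With 1 tumor left out this number ran from 0 (without vehicle replicate 2 or 3) to 6 (without R-propranolol replicate 5), the latter being 16.2% of the list against 3.78% of all genes. Id3 had 20.8 ± 3.44 CPM under vehicle (SD, n = 4) and 28.5 ± 4.01 CPM under R-propranolol (SD, n = 5), 0.45 higher on the log2 scale (standard error 0.16). Igf2 had 1.97 (standard error 0.78), and 0.71 without R-propranolol replicate 5. Of growth factor and coagulation genes, Pdgfa had 0.00, Pdgfb 0.35 (standard error 0.17), tissue factor (F3) 0.29 (standard error 0.32, and 0.49 without R-propranolol replicate 5) and Tgfb1 -0.03 (0.14 without R-propranolol replicate 5). The tumor suppressor gene Trp53 had -0.30, and the cell cycle inhibitor gene Cdkn1a had 0.77 (standard error 0.37). The VEGF receptor gene Flt1 had -0.41, Ccnd1 -0.15, the matrix protease gene Mmp14 -0.13 and the adhesion molecule gene Icam1 0.44, each smaller than its error or near it. Without R-propranolol replicate 5 the log2 fold changes of Trp53, Flt1, Ccnd1, Mmp14 and Icam1 were -0.09, -0.17, 0.09, 0.05 and 0.01.
Myelin genes that Egr2 governs in Schwann cells differed widely in level. Of 11 listed, 8 had enough counts, 5 had a higher mean, none (0) had an unadjusted p under 0.05, and log2 fold changes had a median of 0.36 (0.10 without R-propranolol replicate 5). Sox10, the Schwann lineage factor, had 0 to 21 counts. Periaxin (Prx) had 16.9 ± 1.92 CPM under vehicle (SD, n = 4) and 15.8 ± 5.70 CPM under R-propranolol (SD, n = 5), Mbp differed by 1.19 on the log2 scale (standard error 0.85, and 0.59 without R-propranolol replicate 5). Pmp22, which many cell types express, had mean levels of 66.5 and 88.3 CPM and a log2 difference of 0.41.
Of 41 other immediate-early genes, 34 had a higher mean, 9 had an unadjusted p under 0.05 (all higher) and the median was 0.29. The 9 genes are 22.0% of the list against 2.3% of all genes. Without R-propranolol replicate 5, 39 had a higher mean and 18 an unadjusted p under 0.05, which is 43.9% against 3.78% of all genes. With library size alone 31 had a higher mean (75.6% against 35.8% of all genes). The list includes genes that the study picked on these tumors, so its direction is not independent evidence. Dusp1 had 82.9 ± 10.1 CPM under vehicle (SD, n = 4) and 151 ± 31.4 CPM under R-propranolol (SD, n = 5). The AP-1 subunit gene Fos reached a log2 fold change of 2.06 (standard error 0.57), the orphan receptor gene Nr4a1 1.10 (standard error 0.30), Ier2 0.41 (standard error 0.13) and Junb 0.23 (standard error 0.14). Without R-propranolol replicate 5 these 4 were 1.51, 0.95, 0.31 and 0.26. The genes named here are all higher, while 7 of the list had a lower mean (2 without R-propranolol replicate 5).

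**Figure D5:**
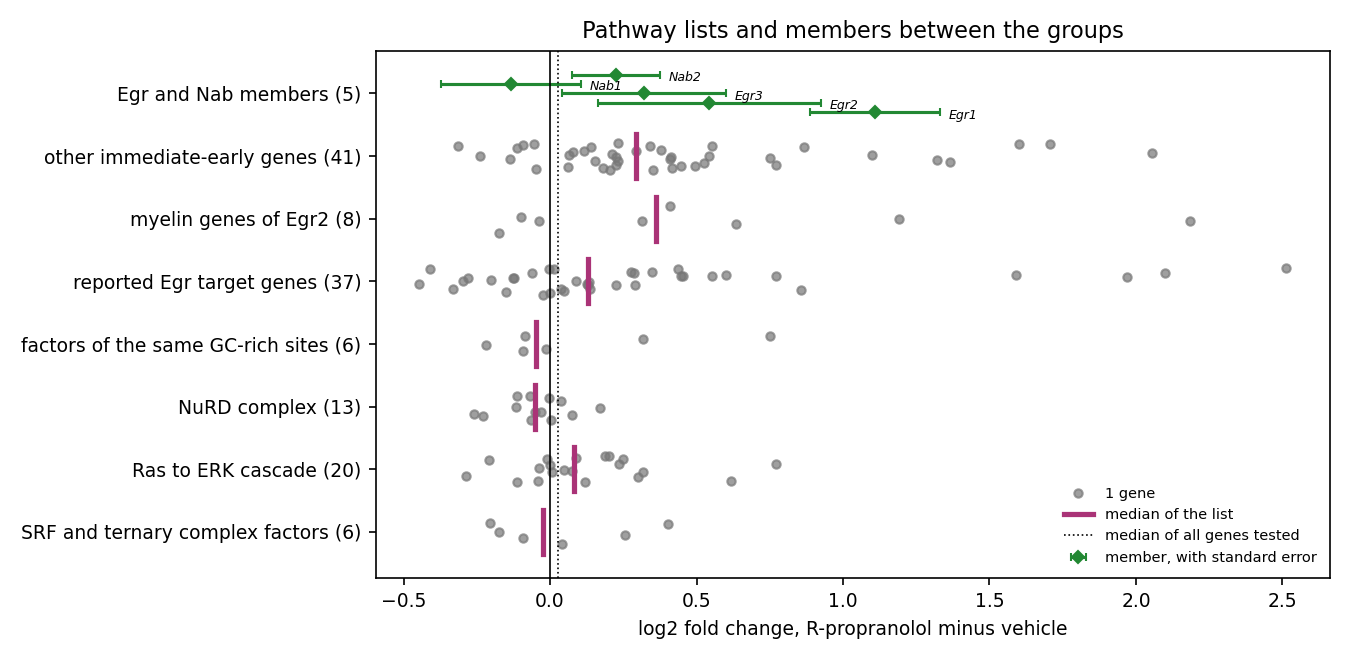
Log2 fold change of R-propranolol over vehicle (horizontal axis) for each tested gene of 7 lists (grey points, number of genes in parentheses), with the median of each list and of all genes tested, and for the 5 tested members with their standard errors. The lists of inputs and partners have medians from -0.05 to 0.08, the other immediate-early genes have a median of 0.29, and Egr1 lies at 1.11.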

How the data were processed

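The authors prepared libraries from tumor RNA with the NEBNext Ultra kit and sequenced paired 150-base reads. The submitters' processing notes name mm10, STAR and HTSeq, but versions, annotation and strandedness were not given in the sources used here. Values were deposited as raw counts per gene symbol. The HTSeq totals without a gene (13.4% to 15.4%), ambiguous (1.81% to 1.98%) or not unique (3.46% to 7.86%) stayed out of all library sizes.

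Genes were kept by filterByExpr (minimum count 10, minimum total 15), scaled by TMM and compared with the quasi-likelihood test of edgeR 4.0.16 in R 4.3.3, checked on simulated counts. Standard errors are the log2 fold change divided by the root of F. Log2 CPM used a prior count of 0.25. DESeq2 1.42.0 and limma-voom (limma 3.58.1) were alternatives, with other scalings, filters, left-out tumors, summed vehicle replicates 1 and 2 (their titles share their first number) and a replicate block. Exons are from GENCODE M21 on GRCm38, promoter windows from RefSeq on GRCm38.p6. Members and lists were chosen with earlier results of these data known. Genes named from lists were fixed by role, plus up to 3 by smallest p, and 5 of these genes are not reported here. Whether tumors are from separate animals is stated only by the group sizes of the methods, so p-values measure the spread between these samples. Scaling by endothelial markers and the counts of list genes without R-propranolol replicate 5 were chosen after seeing the data.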

Additional observations from a re-analysis of the deposited data

Results flagged for a closer look

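A tumor was marked where its gap to the nearest other tumor of its group was large against the range of the group (Dixon's 95% limit). Of 90 groups of values, 14 were marked, where chance marks about 1 in 20, and 9 of the 14 were R-propranolol replicate 5. Among the members, Egr2 was marked, with 18.9 CPM in R-propranolol replicate 2 and 5.78 to 8.44 CPM in the other 4 treated tumors. The same tumor was the highest of its group for Wt1 (5.48 CPM, others 0.988 to 2.16).

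R-propranolol replicate 5 was the highest of its group for Srf (168 CPM), Ksr1 (212 CPM), Rps6ka2 (140 CPM) and Igf2 (29.9 CPM). It was the lowest for Braf (29.0 CPM), Ccnd1 (47.1 CPM), Sp1 (83.7 CPM), Sp3 (80.1 CPM) and Trp53 (44.9 CPM). Vehicle replicate 1 was the lowest of its group for Ksr1 (45.1 CPM) and the highest for Mta1 (104 CPM) and Trp53 (168 CPM).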

How the results depend on the processing

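The log2 fold change of Egr1 ranged from 1.01 to 1.27 with each tumor left out and from 0.97 to 1.12 under the other scalings, filters and tests. The left-out ranges were 0.13 to 0.71 for Egr2, 0.10 to 0.43 for Egr3, -0.27 to 0.01 for Nab1 and 0.13 to 0.32 for Nab2. Scaled by endothelial markers, which was added after seeing the data, the values were 0.30, -0.35, -0.49, -0.96 and -0.54, and the cause was not tested. Genes called numbered 0 under each alternative except DESeq2 (2). Genes with an unadjusted p under 0.05 (320) numbered 656 with DESeq2, 139 with limma-voom, 626 without a filter, 100 with vehicle replicates 1 and 2 summed and 103 to 737 with 1 tumor left out. They numbered 105, 103, 105 and 111 without vehicle replicates 1 to 4, and 565, 283, 625, 737 and 519 without R-propranolol replicates 1 to 5. In the order of levels, the longest transcript gave Nab2 over Egr1 by 0.57 and Egr2 over Egr3 by 0.25, both past the threshold. Egr2 over Egr3 also passed without vehicle replicate 4 (0.29, range 0.15 to 0.29 with 1 tumor left out). No pairing by replicate number was seen, since deviations of same-numbered tumors correlated at -0.28, 0.09, -0.64 and 0.53 and no vehicle-treated tumor was most like its own number. With so few tumors this cannot exclude a pairing. With a replicate block 283 genes had an unadjusted p under 0.05, the log2 fold change of Egr1 was 1.05 and that of Nab1 -0.02. Depth limits Egr4 (0 counts) and, with 87 to 473 counts, Egr2.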
